A study of Homo sapiens with 8 samples.

Results

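The potassium channel genes of A375 cells were examined as the rows of the gene count table whose symbol is KCN, further letters and a closing number, which gave 95 of the 60710 genes. The rule leaves out antisense transcripts and uses no measured value. A375, a human cell line derived from a metastatic melanoma, was treated with 50 ng/mL recombinant human tumor necrosis factor (TNF) for 24 h or left without it (NT) for the same time, and both groups were grown in the same serum-supplemented medium. Each group has 4 libraries from polyadenylated RNA, 1 from each of 4 experiments, all of 1 cell line, so that the replicates are repeats of a culture and not different tumors. Values are CPM (each count divided by the scaled library total and expressed per 1e+06 counts), made comparable between libraries by the trimmed mean of M values (TMM).

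Potassium channels let potassium leave the cell along its gradient and so set the resting membrane potential. In cells that do not fire action potentials, they take part in volume control, calcium entry and the cell cycle. The pore-forming proteins fall into voltage-gated channels, channels opened by calcium or sodium, two-pore channels that carry background current, and inward rectifiers. Auxiliary subunits bind these and alter their gating or their transport to the membrane.

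Libraries held 30989787 to 44373296 counts. The labels were checked with NFKBIA, TNFAIP3, ICAM1 and CXCL8, genes that TNF signaling is known to induce, and all 4 were higher in TNF, with ICAM1 at 569 ± 45.8 CPM in TNF and 40.4 ± 4.53 CPM in NT (SD, n = 4). Of the 8 melanoma markers, S100B was lower, at 3.05 CPM in TNF and 17.3 CPM in NT, and AXL was higher, at 510 CPM in TNF and 345 CPM in NT. SOX10 (1177 CPM in TNF, 1025 CPM in NT), MITF, PMEL and MLANA did not pass, PMEL and MLANA averaged 0.387 to 0.456 CPM in TNF and 0.352 to 0.458 CPM in NT, and TYR and DCT were too low to test. Summed CPM of the 4 leukocyte markers ran from 1.75 to 5.22 in TNF and from 4.75 to 6.97 in NT, that of the 3 endothelial markers from 2.12 to 3.43 in TNF and from 0.825 to 1.80 in NT, and that of the 3 epithelial markers from 8.54 to 11.9 in TNF and from 16.2 to 22.4 in NT. Within these lists members went in opposite directions. KRT5 was higher (1.61 CPM in TNF, 0.192 CPM in NT) and KRT14 lower (8.39 CPM in TNF, 18.3 CPM in NT), PECAM1 was higher (2.30 CPM in TNF, 0.312 CPM in NT), and VWF did not pass (0.226 CPM in TNF, 0.681 CPM in NT). Their part in the results was not tested. Ribosomal, 7SK and 7SL RNA took 0.0137% to 0.0141% of the counts in TNF replicate 4, NT replicate 2 and NT replicate 4, against 0.00279% to 0.00459% in the other libraries.

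Most potassium channel genes were silent or nearly so. Of the 95 genes, 36 had enough counts to be tested, and 59 did not. Of all 60710 genes, 16186 were tested and 28855 had no count in any library. These rows include noncoding transcripts, so they cannot show whether low counts are particular to channel genes. Among the 59, 14 had no count in any library, 35 reached at most 9 counts in a library, and 10 reached 10 or more counts in at least 1 library. Of 40 voltage-gated alpha subunits 12 were tested, as were 5 of 8 calcium- and sodium-activated channels, 6 of 15 two-pore channels, 6 of 16 inward rectifiers and 7 of 16 auxiliary subunits.

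Per length of merged exons, KCNN4, the intermediate-conductance calcium-activated channel, had the highest level, with 31.1 ± 3.96 CPM per kb in TNF and 28.2 ± 0.977 CPM per kb in NT (SD, n = 4). Its 4 TNF libraries held 111, 103, 92.7 and 82.4 CPM, and the NT libraries 91.5, 89.2, 84.4 and 86.9 CPM. These ranges overlapped, and the log2 fold change of KCNN4 was 0.14 with a 95% confidence interval of -0.06 to 0.35 (edgeR quasi-likelihood test, adjusted p = 0.303). KCNG1 came second, with 14.4 ± 0.768 CPM per kb in TNF and 11 ± 0.596 CPM per kb in NT. KCNN4 and KCNG1 together made up 63.6% to 67.1% of the summed CPM per kb of all 95 genes in TNF and 64.6% to 68.5% in NT.

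Below these, genes that include KCNS3, KCNK5, KCNK1, KCNAB2, KCND1, KCNN3 and KCNQ5 had means over the 8 libraries that ran from 4.10 down to 0.800 CPM per kb. Among these lower levels, KCND1, an A-type voltage-gated channel, had 0.925 ± 0.466 CPM per kb in TNF and 1.25 ± 0.447 CPM per kb in NT, so that the spread of KCND1 covered the level of its neighbour KCNN3 in both groups and that of KCNAB2 (1.4 in TNF, 1.2 in NT) in NT alone. The order depends on the length used. Per kb of the canonical transcript, a scale added after the values were seen, KCNAB2, KCNMA1 and KCNC4 took places 4, 5 and 6 in place of 7, 13 and 17, because their merged exons, at 17212, 39437 and 26071 bases, are far longer than their canonical transcripts of 4176, 6261 and 4139 bases.

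**Figure D1:**
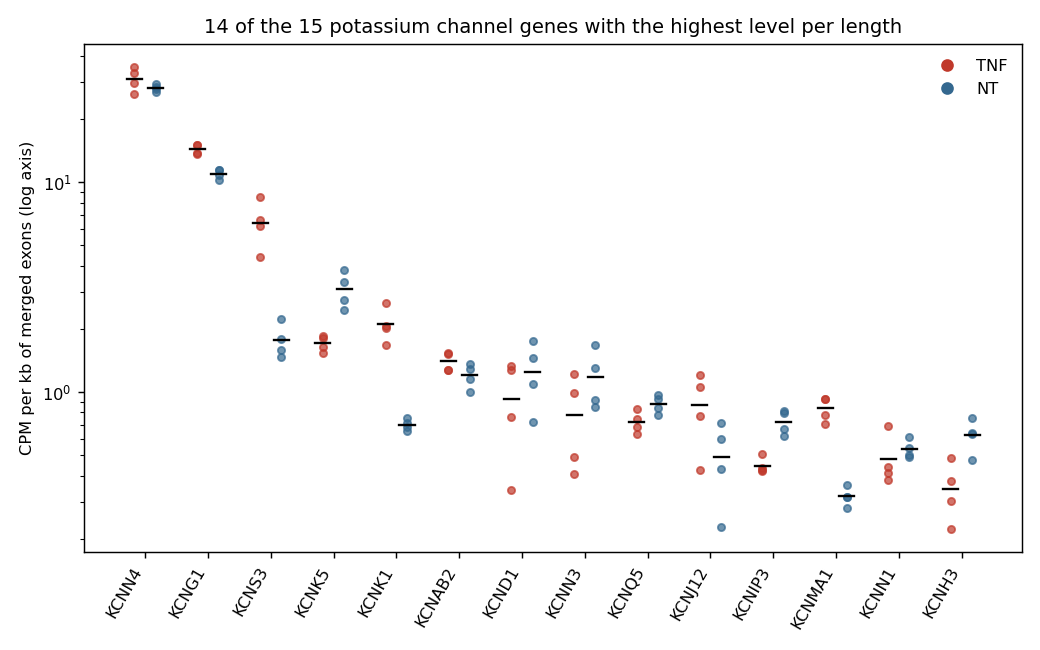
CPM per kb of merged exons (log axis) of 14 of the 15 potassium channel genes with the highest mean level, with 1 point per library and the mean of 4 libraries as a line, TNF in red and NT in blue. KCNN4 (31.1 in TNF, 28.2 in NT) and KCNG1 (14.4 in TNF, 11 in NT) stand above the rest. The TNF and NT points do not overlap for KCNG1, KCNS3, KCNK1 and KCNMA1, higher in TNF, or for KCNK5 and KCNIP3, lower in TNF.

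The comparison of TNF with NT asked which channel transcripts differ after a day of TNF. Of the 36 tested genes, 5 were higher in TNF (KCNF1, KCNS3, KCNK1, KCNMA1 and KCNG1) and 4 were lower (KCNJ2, KCNK5, KCNH3 and KCNIP3), and 27 did not pass the threshold. These are 13.9% and 11.1% of the tested channel genes, against 14.5% and 9.90% of all 16186 genes tested. At this threshold the share of channel genes that changed was thus close to that of genes in general. With an absolute log2 fold change above 1 also required, 4 of the 36 channel genes were higher, against 5.62% of all genes. Only KCNJ2, 1 of the 36, was lower, against 2.39% of all genes. DESeq2 called the same 9 genes and KCNK3 lower, 5 of the 36 in each direction, against 15.6% and 12.2% of all genes. The median log2 fold change was -0.04 over the 36 genes and -0.004 over all genes. A gene was called at an adjusted p under 0.05 (edgeR quasi-likelihood test, Benjamini-Hochberg over all genes), and fold changes are TNF over NT. In bulk RNA, a change in every cell cannot be told apart from a change in some of the cells.

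**Figure D2:**
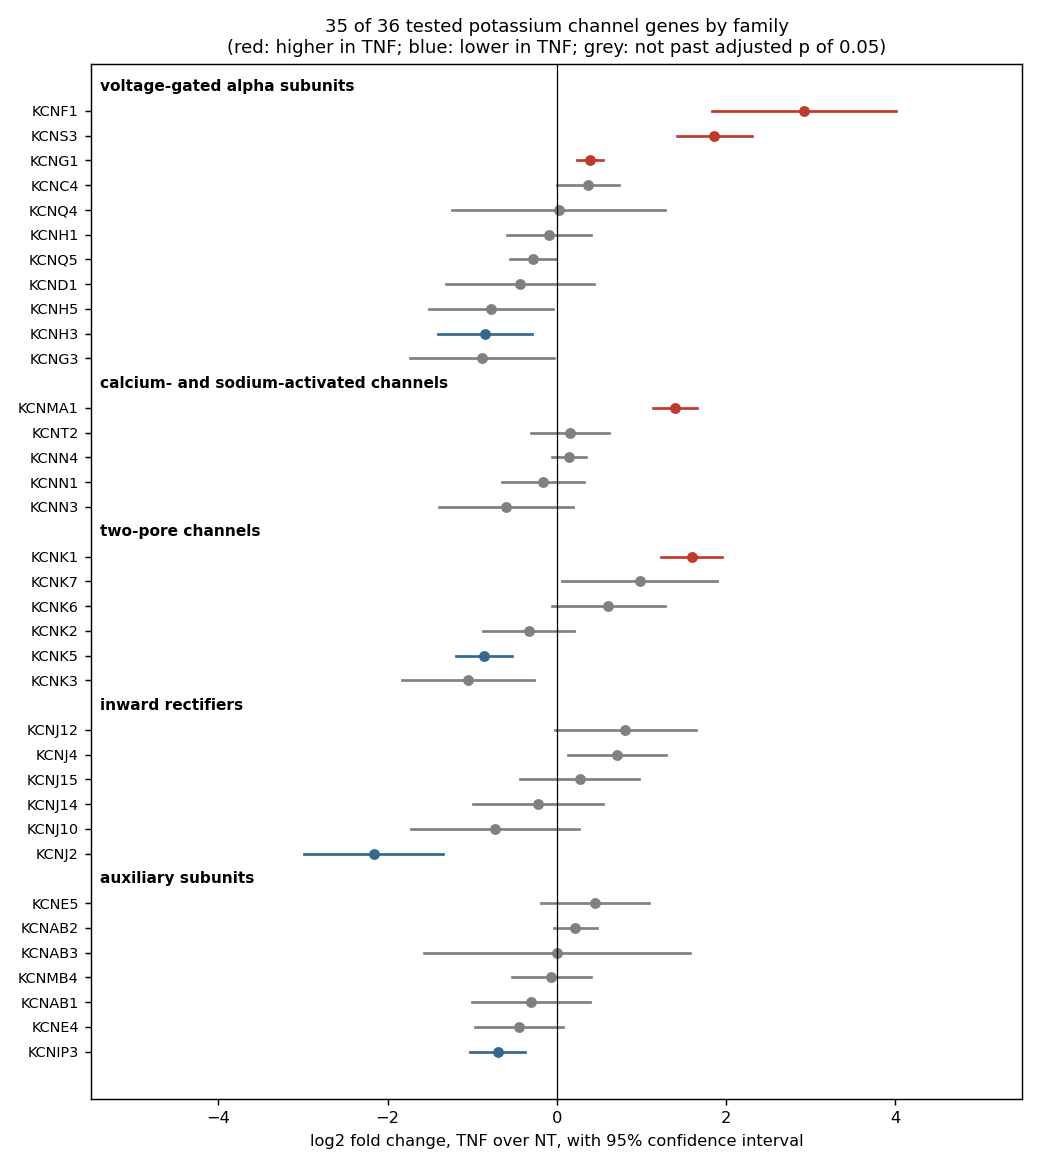
Log2 fold change, TNF over NT, with its 95% confidence interval for 35 of the 36 tested potassium channel genes, grouped by family and ordered within each. The 5 genes higher in TNF (red) run from KCNG1 at 0.39 to KCNF1 at 2.92, the 4 lower in TNF (blue) from KCNIP3 at -0.70 to KCNJ2 at -2.16, and each family holds at least 1 called gene.

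Among the voltage-gated subunits, KCNS3 showed a clear increase. It encodes an electrically silent subunit, which forms no channel alone and modifies Kv2 channels when joined to them. KCNS3 had 20.7, 19.4, 13.8 and 26.5 CPM in TNF, against 4.96, 5.60, 4.60 and 6.98 CPM in NT. The lowest TNF library was above the highest NT library, and KCNS3 was 3.63-fold higher in TNF (95% confidence interval 2.66 to 4.95, log2 fold change 1.86, SE 0.20, adjusted p by edgeR = 7.84e-05).

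KCNF1, another silent subunit, was low in both groups. Its counts were 48, 33, 43 and 23 in TNF libraries, or 1.38, 1.01, 0.996 and 0.744 CPM, against 9, 6, 5 and 0 counts in NT libraries, or 0.192, 0.164 and 0.157 CPM in replicates 1 to 3. All TNF libraries were above all NT libraries. The log2 fold change of 2.92 (SE 0.49, adjusted p by edgeR = 0.0014) has a 95% confidence interval of 1.8 to 4.0 and rests on few NT counts.

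KCNG1, a silent subunit with far more transcript, had 74.6, 81.6, 73.9 and 81.3 CPM in TNF, against 55.3, 62.0, 62.2 and 58.7 CPM in NT. The groups did not overlap, and the difference was small, at 1.31-fold (log2 fold change 0.39, SE 0.07, adjusted p by edgeR = 0.0024). Of 10 silent subunits, 4 were tested, and 3 of them were higher in TNF, against 14.5% of all genes, whereas none of the 8 other tested voltage-gated subunits was. With the experiment as a block, KCNC4, 1 of these 8, was also called higher (adjusted p by edgeR = 0.0348). KCNF1 reached the minimum count of 10 only in TNF libraries, so it was tested only through the group where it is high. Its place among the 3 therefore adds no support to the grouping. The grouping as silent subunits was chosen after the values were seen, and no test was made of it. The fourth, KCNG3, stood at -0.88 on the log2 scale and did not pass (adjusted p by edgeR = 0.129). KCNB2, a Kv2 subunit, had no count in any library, and Kv2 genes other than KCNB2 are not reported here.

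The remaining voltage-gated call was KCNH3, an ether-à-go-go-like channel best known from brain. It had 2.18, 1.69, 1.37 and 1.00 CPM in TNF, against 3.38, 2.84, 2.86 and 2.13 CPM in NT. TNF replicate 1 was above NT replicate 4, so the groups overlapped, and the log2 fold change was -0.85 (SE 0.25, adjusted p by edgeR = 0.0310). The call was lost when TNF replicate 2 or 3, or NT replicate 1, 2 or 3, was left out, with adjusted p by edgeR up to 0.087. Its annotated exons share 43 bases with the opposite-strand gene MCRS1, which has a mean of 3420 counts.

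KCNMA1, the large-conductance channel opened by calcium and voltage together, had 27.7, 36.6, 30.8 and 36.7 CPM in TNF, against 12.4, 12.5, 11 and 14.2 CPM in NT. The groups were well apart, with a 2.63-fold increase (95% confidence interval 2.20 to 3.14, log2 fold change 1.39, SE 0.12, adjusted p by edgeR = 1.33e-05). No other tested calcium- or sodium-activated channel passed. Besides KCNN4, these were KCNT2 (log2 fold change 0.15), KCNN1 (-0.17) and KCNN3 (-0.61). KCNMB4, an auxiliary beta subunit of the KCNMA1 channel, had 1.04 ± 0.166 CPM in TNF and 1.09 ± 0.100 CPM in NT (SD, n = 4; adjusted p by edgeR = 0.863).

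Two-pore channels changed in both directions. KCNK1, a weakly conducting background channel, had 7.26, 7.15, 5.91 and 9.42 CPM in TNF, against 2.50, 2.30, 2.64 and 2.41 CPM in NT, a 3.01-fold increase with no overlap (log2 fold change 1.59, SE 0.16, adjusted p by edgeR = 5.37e-05). KCNK5, an acid-sensitive background channel linked to volume control, had 7.03, 6.82, 5.79 and 6.21 CPM in TNF, against 14.5, 12.7, 9.35 and 10.4 CPM in NT. All TNF libraries of KCNK5 were below all NT libraries, at 0.551-fold (log2 fold change -0.86, SE 0.15, adjusted p by edgeR = 0.0018). Per kb of merged exons, KCNK1 and KCNK5 averaged 1.4 and 2.4 CPM over all libraries. In NT, KCNK1 stood at 0.698 ± 0.0417 and KCNK5 at 3.10 ± 0.612 CPM per kb (SD, n = 4). In TNF, KCNK1 stood at 2.11 ± 0.413 and KCNK5 at 1.71 ± 0.150 CPM per kb, a difference within the SD of KCNK1. The order of the genes also depends on the length used.

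KCNJ2, which encodes the inward rectifier Kir2.1 that holds the resting potential in muscle and other cells, fell furthest among the called genes. It had 0.832, 1.17, 0.556 and 0.485 CPM in TNF, against 3.89, 4.62, 1.54 and 3.52 CPM in NT. The groups did not overlap, although NT replicate 3 was well below the other NT libraries, and the level in TNF was 0.223-fold that in NT (95% confidence interval 0.126 to 0.394, log2 fold change -2.16, SE 0.37, adjusted p by edgeR = 0.0016). The related KCNJ4 (Kir2.3) had 0.861, 0.860, 0.880 and 0.582 CPM in TNF, against 0.556, 0.383, 0.441 and 0.571 CPM in NT. These did not overlap either, yet the gene did not pass (log2 fold change 0.71, SE 0.26, adjusted p by edgeR = 0.0776). Over all 16186 genes, 15.6% had all TNF libraries above all NT libraries and 11.6% had all of them below.

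Among auxiliary subunits only KCNIP3 passed. It encodes a calcium sensor that binds Kv4 channels and also, as DREAM, DNA. KCNIP3 had 3.33, 4.02, 3.45 and 3.37 CPM in TNF, against 4.94, 6.34, 5.29 and 6.47 CPM in NT, with no overlap (log2 fold change -0.70, SE 0.15, adjusted p by edgeR = 0.0054). Without the 3 libraries richest in ribosomal, 7SK and 7SL RNA, which leaves 3 TNF and 2 NT libraries, the adjusted p by edgeR for KCNIP3 was 0.0773. In that fit 6 of 37 tested channel genes were higher, against 12.8% of all genes, and 6 were lower, against 8.33%. Without both libraries of the fourth experiment, 8 of 37 were higher, against 15.2% of all genes, and 7 were lower, against 11.5%. The 9 called genes were among those of the fit without the fourth experiment. Both fits were added after the data were seen.

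**Figure D3:**
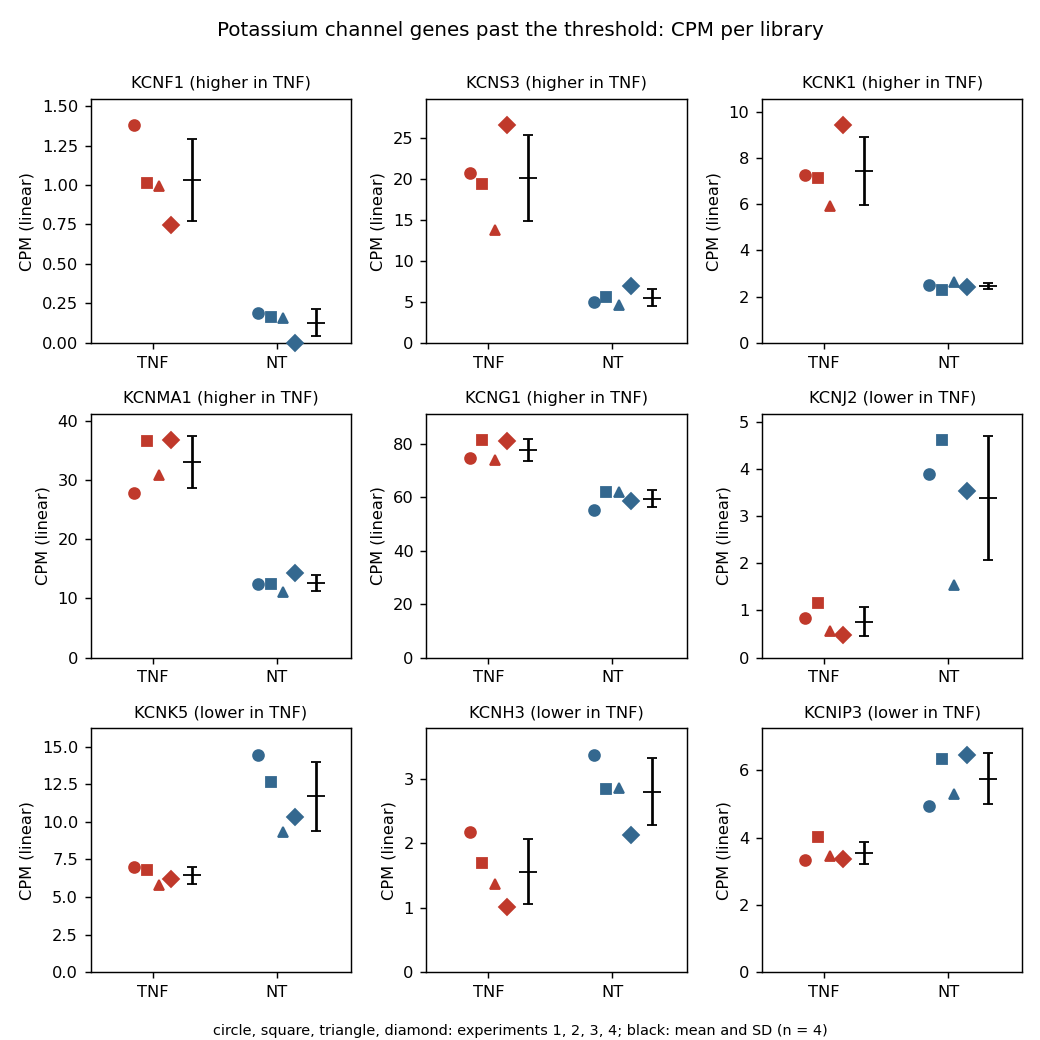
CPM (linear axes from 0) of the 9 called potassium channel genes in each library, TNF in red on the left and NT in blue on the right of each panel, with the mean and SD of 4 libraries in black and marker shapes for the 4 experiments. TNF and NT points are apart for every gene but KCNH3, where TNF replicate 1 (2.18 CPM) lies above NT replicate 4 (2.13 CPM).

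The promoters of the 5 genes with the largest fold changes are shown because these genes moved most, and none was chosen for its sequence. The 250 bases before the start site were taken from RefSeq on GRCh38.p14, using the start nearest that of the canonical transcript. They are written from 5′ to 3′ in the direction of the gene, and capitals mark matches to 3 motifs searched on both strands, the NF-kB consensus, the AP-1 motif TGANTCA and the TATA box TATAAA.
KCNS3 (chr2:17878417-17878666, + strand): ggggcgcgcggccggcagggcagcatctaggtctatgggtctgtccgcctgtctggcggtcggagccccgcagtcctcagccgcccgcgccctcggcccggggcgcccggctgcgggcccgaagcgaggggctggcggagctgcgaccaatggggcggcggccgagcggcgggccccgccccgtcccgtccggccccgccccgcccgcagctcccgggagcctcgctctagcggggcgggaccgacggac
KCNF1 (chr2:10911684-10911933, + strand): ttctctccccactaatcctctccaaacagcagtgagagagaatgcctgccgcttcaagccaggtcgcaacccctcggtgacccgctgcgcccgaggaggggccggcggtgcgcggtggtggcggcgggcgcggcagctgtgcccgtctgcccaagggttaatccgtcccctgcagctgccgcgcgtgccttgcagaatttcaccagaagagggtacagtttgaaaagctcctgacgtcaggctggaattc
KCNK1 (chr1:233613856-233614105, + strand): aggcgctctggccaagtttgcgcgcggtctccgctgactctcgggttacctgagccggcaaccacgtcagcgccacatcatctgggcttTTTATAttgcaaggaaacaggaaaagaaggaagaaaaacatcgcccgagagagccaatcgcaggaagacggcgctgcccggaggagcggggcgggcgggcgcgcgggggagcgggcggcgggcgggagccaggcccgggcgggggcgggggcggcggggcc
KCNMA1 (chr10:77637809-77638058, - strand): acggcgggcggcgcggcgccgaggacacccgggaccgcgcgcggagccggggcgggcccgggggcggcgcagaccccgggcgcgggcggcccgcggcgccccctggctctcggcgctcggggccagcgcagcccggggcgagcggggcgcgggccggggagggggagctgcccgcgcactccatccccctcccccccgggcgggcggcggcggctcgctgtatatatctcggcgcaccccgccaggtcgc
KCNJ2 (chr17:70169282-70169531, + strand): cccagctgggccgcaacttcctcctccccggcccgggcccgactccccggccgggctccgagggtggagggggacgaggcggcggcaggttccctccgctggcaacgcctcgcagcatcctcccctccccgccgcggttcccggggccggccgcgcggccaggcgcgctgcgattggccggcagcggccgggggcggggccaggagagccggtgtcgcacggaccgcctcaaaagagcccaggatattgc

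The only match in these 5 was a TATAAA on the reverse strand of KCNK1, from -161 to -156. The search took the exact letters TATAAA, so related stretches such as the tatatat near the end of the KCNMA1 window were not counted. The windows were rich in G and C, from 63.6% in KCNF1 to 85.6% in KCNMA1, with a median of 64.8% over 11279 tested genes with a promoter in the table. The NF-kB consensus occurred in 11.7% of those promoters, TGANTCA in 4.20% and TATAAA in 5.45%. A promoter was found for 71 of the 95 channel genes and 28 of the tested ones. The NF-kB consensus occurred in 7 of these 28, but in none of the 7 called genes with a promoter, of which KCNIP3 is represented by a window 49311 bases from the start of its canonical transcript. A match is a stretch of letters and not a bound site.

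The 4 experiments pair the libraries. With the experiment as a block, 9 channel genes were higher in TNF (25% of those tested, against 21.3% of all genes) and 8 were lower (22.2%, against 18.2% of all genes). All 9 genes called before were called again. The 8 added genes were KCNJ12, KCNK6, KCNC4 and KCNAB2, higher in TNF, and KCNK3, KCNN3, KCND1 and KCNG3, lower in TNF. For NT, the single-sample records hold the counts of another experiment's library than their titles give. With the pairing of those records 5 were higher (13.9% of those tested, against 9.62% of all genes) and 3 were lower (8.33%, against 4.95% of all genes). None of the 8 added genes was then called, so these calls depend on which pairing is used. Deviations from the group means correlated at 0.35, 0.17, 0.24 and 0.46 between TNF replicates 1 to 4 and their NT partners by title. With the NT partners by the records they correlated at -0.07, -0.10, -0.40 and -0.31. TNF replicate 3 correlated at 0.23 with NT replicate 1, close to the 0.24 with its partner by title. In data simulated with gene-wise dispersions, the fit with the block made false calls more often than the nominal share and more often than the fit without it. Those simulated data held no difference between experiments, so they cannot show how often the fit with the block errs in these libraries.

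KCNJ12 (Kir2.2) shows what the block changes. It had 6.60, 4.18, 5.74 and 2.33 CPM in TNF replicates 1 to 4, against 3.89, 2.35, 3.24 and 1.24 CPM in NT replicates 1 to 4. The groups overlapped widely, but within each experiment KCNJ12 was higher in TNF by 0.76, 0.82, 0.82 and 0.88 on the log2 CPM scale. Its adjusted p by edgeR was 0.152 without the block and 0.0005 with it. KCNJ12 is nearly identical in sequence to KCNJ18, to which reads can be assigned in error, and KCNJ18 had 0, 2, 4 and 5 counts in TNF and 1, 0, 0 and 0 counts in NT.

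The acid-sensitive background channel KCNK3 (TASK-1) had 0.574, 0.645, 0.811 and 0.259 CPM in TNF, against 1.54, 1.23, 1.32 and 0.698 CPM in NT. TNF replicate 3 was above NT replicate 4, and the log2 fold change was -1.05 (SE 0.35), with an adjusted p by edgeR of 0.0531 without the block and 0.0060 with it. KCNN3, a small-conductance calcium-activated channel, had 13.4, 6.66, 16.6 and 5.53 CPM in TNF, against 17.7, 11.6, 22.8 and 12.5 CPM in NT. It was lower in TNF in all 4 experiments, by 0.39, 0.79, 0.46 and 1.17 on the log2 CPM scale, although the level differed more between experiments than between treatments. The adjusted p by edgeR for KCNN3 was 0.265 without the block and 0.0022 with it.

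The other 5 genes gained with the block had an adjusted p by edgeR from 0.0108 for KCNK6 to 0.0494 for KCNG3. KCNK6 (a two-pore channel) and KCNC4 (a Kv3 channel) were higher in TNF in 4 of 4 experiments, and KCNAB2, a beta subunit of Kv1 channels, in 3 of 4. KCND1 and KCNG3 were lower in TNF in 4 of 4. All genes gained with the block were picked by a fit on these same pairs, so such counts of experiments add no support. KCNE5 was also higher and KCNE4 lower in 4 of 4 experiments, and neither was called with or without the block. The exons of KCNAB2 share 212 bases with NPHP4 on the opposite strand.

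**Figure D4:**
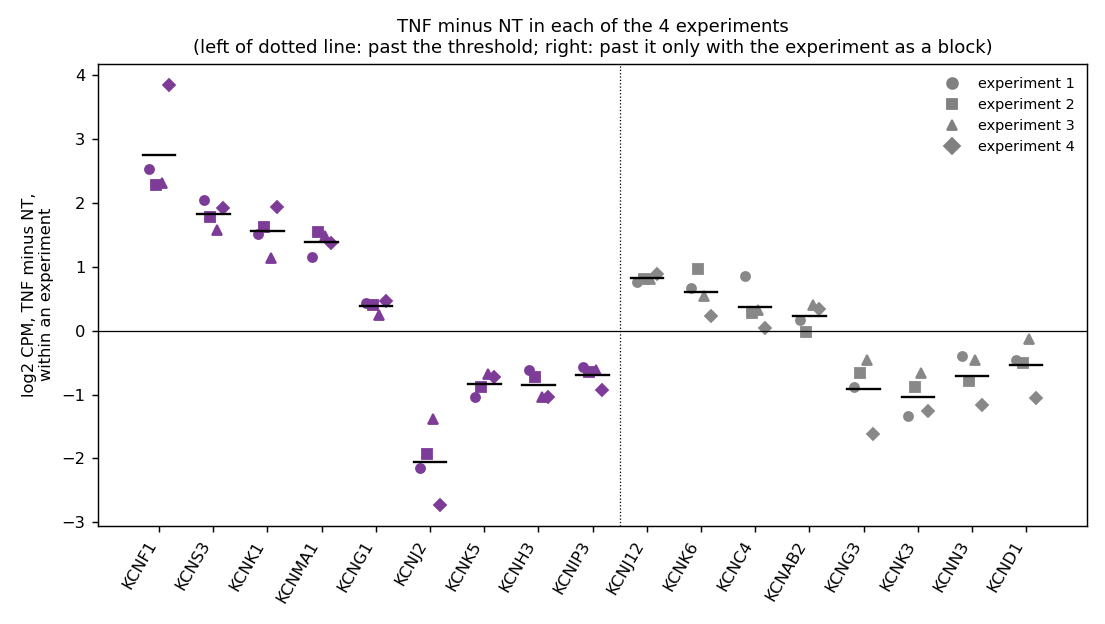
Difference in log2 CPM, TNF minus NT, within each of the 4 experiments for the 9 called potassium channel genes (purple) and the 8 that passed only with the experiment as a block (grey), with the mean as a line. All 4 experiments lie on 1 side of 0 for each gene but KCNAB2, and the 4 values of KCNJ12 lie between 0.76 and 0.88. The 8 grey genes were picked by a fit on these same pairs, so lying on 1 side adds no support for them.

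Several genes with too few counts to be tested had fewer counts in TNF, and they are named here after their values were seen. KCNA4, an A-type Kv1 channel, had 0, 1, 1 and 2 counts in TNF, against 30, 11, 18 and 5 counts in NT. KCNC1, a Kv3 channel, had 0, 0, 2 and 0 counts in TNF, against 16, 5, 6 and 1 counts in NT. KCNA2, a Kv1 channel, had 2, 0, 1 and 0 counts in TNF, against 11, 6, 10 and 1 counts in NT. The inward rectifier KCNJ16 had no count in TNF, against 5, 4, 9 and 1 counts in NT. KCNJ16 was at least 6.11-fold lower in TNF when 3 counts over the TNF libraries are taken as the limit. In each of these 4 genes NT replicate 4 was the lowest NT library. With no filter on low counts, 81 channel genes were fitted. Of these 81, 5 were higher, against 6.92% of all genes, and 9 were lower, against 4.89% of all genes. The 9 included these 4 genes, with an adjusted p by edgeR of 0.0002 for KCNA4, 0.0184 for KCNC1, 0.0277 for KCNA2 and 0.0093 for KCNJ16. This limit covers counting error only.

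Of 32 genes that handle potassium outside the KCN symbols, such as pumps, cotransporters and pacemaker channels, 17 were tested, 1 was higher in TNF (5.88%, against 14.5% of all genes), 3 were lower (17.6%, against 9.90% of all genes) and 13 did not pass. HCN3, a pacemaker channel that passes potassium and sodium, had 2.64, 1.72, 2.13 and 2.36 CPM in TNF, against 1.09, 1.2, 1.23 and 1.4 CPM in NT. The groups did not overlap (log2 fold change 0.85, SE 0.20, adjusted p by edgeR = 0.010). TMEM38A, a potassium channel of internal membranes, had 2.12, 2.12, 1.85 and 1.46 CPM in TNF, against 3.29, 3.20, 3.49 and 2.19 CPM in NT. The lowest NT library was above the highest TNF library (log2 fold change -0.69, SE 0.20, adjusted p by edgeR = 0.0313). The call of TMEM38A was lost when TNF replicate 2, 3 or 4, or NT replicate 1, 2 or 3, was left out, with adjusted p by edgeR from 0.0531 to 0.0885.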

How the data were processed

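RNA was extracted from A375 cells, TNF or NT, and stranded libraries of polyadenylated RNA were sequenced. The authors aligned reads with Bowtie2 (version not given in the sources used here) to GRCh38 and deposited expected counts per gene from RSEM 1.2.25, not normalized, in 1 column per library. The sources used here do not say whether counting used strand. The 4 single-sample NT records hold the counts of another NT library than their titles give, and the series table was used.

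Counts were rounded to whole numbers. Genes were kept by filterByExpr (minimum count 10, minimum total 15) and tested with edgeR 4.0.16 (R 4.3.3), without a block, by TMM and the robust quasi-likelihood test. DESeq2 1.42.0, limma 3.58.1 voom, other scalings, other filters, a replicate block, leaving out each library and 2 alternatives chosen after seeing the data were also run. Libraries with the same number share an experiment date in their titles and were paired by it. Their deviations from the group means correlated at 0.35, 0.17, 0.24 and 0.46. TNF replicate 3 correlated at 0.23 with NT replicate 1, so the values barely single out its partner. The procedure was tested on simulated data under both gene-wise and trended dispersions. A first version missed its criterion for the share of changed genes recovered, and the simulation and criteria (sign and bias) were revised after that was seen. In these simulations the share of false calls was above the nominal threshold for every tool, most with DESeq2. Far fewer genes were changed there than were called in the data, so that share cannot be carried over to these libraries. Adjusted p-values near the threshold are still to be read as weak evidence. No 2 libraries of the same treatment agreed within counting error. Positions and lengths come from GENCODE 44, a later annotation than the authors used. Named were the called genes, the 10 highest per kb, the called potassium handling genes and 4 genes to check the TNF label, besides genes accounting for the rest; some genes that meet this rule are not reported here. The members and lists were chosen with earlier results of these data known.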

Additional observations from a re-analysis of the deposited data

Results flagged for a closer look

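In NT replicate 4, KCNF1 had no count, and its log2 CPM of -4.17 (with a prior count of 2) lay below those of the other NT libraries, which ran from -2.23 to -2.01. Of 38 groups of 4 libraries examined in this way, this was the 1 with a library far from the others, and chance gives about 1 in 20. Without NT replicate 4, KCNF1 was still higher in TNF.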

How the results depend on the processing

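KCNF1, KCNS3, KCNK1, KCNMA1, KCNG1, KCNJ2 and KCNK5 kept their calls in every fit that tested them at an adjusted p under 0.05, and KCNF1 was not tested where every library had to hold 10 counts. With the replicate block, 3451 genes were higher and 2946 lower in TNF, among them 9 and 8 potassium channel genes; with the block by the single-sample records, 1557 and 801, and 0 potassium handling genes higher. The block by title date ended no call; under the records' pairing KCNH3, HCN3 and TMEM38A were no longer called. At an adjusted p under 0.01, 1548 genes were higher and 772 lower. Adding a log2 fold change above 1 left 909 and 387 genes, 4 channel genes higher and 1 lower, and 0 handling genes higher and 1 lower. Library totals in place of TMM gave 1925 genes higher and 2514 lower, and upper-quartile factors 2045 and 2196, against 2345 and 1603 with TMM. With no filter, 9 channel genes were lower and 2 handling genes higher. Without both libraries of the fourth experiment, 8 channel genes were higher, 7 were lower and 2 handling genes were higher, and without the 3 libraries with the most ribosomal RNA 2 handling genes were higher. Leaving out 1 library at a time gave 5 to 7 channel genes higher, 3 to 6 lower and 1 to 2 handling genes higher. DESeq2 called 5 channel genes higher and 5 lower, adding KCNK3.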
